A study of Sus scrofa with 60 samples.

Results

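Flavin-containing monooxygenases and aldehyde oxidase were followed in the livers of 60 neonatal pigs as 5 genes, FMO1, FMO2, FMO4, FMO5 and AOX1, out of 30335 named genes in the count table. They were taken by gene symbol. The set was chosen by its measured levels, FMO5 and AOX1 being much lower on parenteral nutrition (PN) than on enteral feeding, so the PN against enteral values below describe that choice and carry no test. All 5 members were among the 16210 genes that passed the filter on low counts.

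The pigs, of both sexes and from Landrace and Hampshire crosses, were delivered by cesarean section shortly before term and had either a ligation of the cystic and common bile ducts (BDL) or a sham operation on day 1 of life. Until day 14 they were assigned to formula through an orogastric tube (ENT), PN with a soy oil emulsion (SLE, Intralipid, coded IL in the labels) or PN with a multicomponent emulsion (MLE, SMOFlipid, coded SL), and the liver was collected once, at the end. There were 12 sham and 10 BDL pigs on ENT, 10 and 11 on SLE, and 9 and 8 on MLE, with 1 library each. Every pig had a jugular catheter and started on PN, and the ENT pigs were moved off it stepwise over the first week, so only the second week was fully enteral. Levels are read counts scaled to library size (CPM) after trimmed-mean normalization, and because whole liver was sequenced, fewer cells of a type and less RNA per cell cannot be told apart.

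FMO enzymes sit in the endoplasmic reticulum, carry FAD, take electrons directly from NADPH and add oxygen to the nitrogen or sulfur of drugs and dietary amines. AOX1 is a cytosolic enzyme that carries a molybdenum cofactor, FAD and iron-sulfur centers and oxidizes aldehydes and nitrogen-containing ring compounds. Both belong to the drug oxidation of hepatocytes that does not pass through cytochrome P450. FMO1 is known as the form of fetal human liver.

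The libraries held 14469788 to 21374161 counted reads. The library labelled ENT-sham replicate 2 and the library labelled ENT-BDL replicate 1 were alike almost to the limit of counting: their chi-square per degree of freedom over genes was 1.91, against 16.2 for the next closest of the 1770 pairs. The library labelled ENT-sham replicate 2 had the lowest FMO1, FMO5 and AOX1 of its group. For these genes the ENT-sham ranges, the differences from ENT, the BDL differences on ENT and the residual correlations between them are given below with and without both libraries. Most other values, such as means per kilobase, averages over the diets, marker sums and differences of FMO4 and FMO2, are given with both only. Over pairs of libraries within a group the median chi-square per degree of freedom was 53.4. Whether the matching libraries come from 1 liver deposited under both labels or from separate pigs was not tested. Both are kept in the numbers of pigs. The FMO4 (33.6 CPM) and FMO2 (0.213 CPM) of ENT-sham replicate 2 lay inside the range of its group. SLE-sham replicates 9 and 10 share one animal identifier in the titles but differed like other pigs of their group (chi-square per degree of freedom 34.3, rank 52). A number in the titles, with 8 values and no stated meaning, is called the identifier number here, and MLE pigs carry only 4 of its values. Identifier number and diet therefore cannot be fully told apart for any member.

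In the pig genome (build Sscrofa11.1, coordinates as deposited) FMO2 (chromosome 9, 63812016-63857608), FMO1 (63860957-63895086) and FMO4 (63908846-63934985) lie in this order on the plus strand of 1 cluster, with LOC106507839 (63857786-63860779, 0.125 CPM on average, not tested) between FMO2 and FMO1. LOC100523745 (63777449-63801780), annotated as a putative FMO6, lies before FMO2. FMO5 (chromosome 4, 100336769-100372744, plus strand) lies wholly inside CHD1L (100264963-100425728), which is on the minus strand. AOX1 (chromosome 15, 104157748-104234533, plus strand) is followed by AOX4 (104329873-104393436) and AOX2 (104396502-104499789). AOX4 reached at most 3 counts in any library, and AOX2 averaged 1.01 CPM. Reads that fit more than 1 of these related genes, or either strand at FMO5, could have been counted in more than 1 way. CHD1L had group means from 27.1 to 40.5 CPM, against 549 CPM for FMO5 in ENT-sham but 27.0 CPM in SLE-BDL and 27.9 CPM in MLE-BDL pigs, where both genes were at about the same level.

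FMO1 had the highest level of the 5 members. In ENT-sham pigs it ran from 568 through a median of 1385 to 2306 CPM, and in ENT-BDL pigs from 392 through 618 to 797 CPM. In SLE-sham pigs the lowest, median and highest values were 140, 254 and 444 CPM, and in SLE-BDL pigs 70.6, 178 and 345 CPM. In MLE-sham pigs they were 87.2, 452 and 582 CPM, and in MLE-BDL pigs 29.4, 189 and 286 CPM. All 10 SLE-sham pigs lay below every ENT-sham pig, and all 11 SLE-BDL and 8 MLE-BDL pigs lay below every ENT-BDL pig. The lowest ENT-sham value belonged to the library labelled ENT-sham replicate 2. Without both matching libraries ENT-sham started at 1041 CPM, and all 9 remaining ENT-BDL pigs and all 9 MLE-sham pigs lay below it. Against ENT with the same surgery, the fitted log2 difference of FMO1 was -2.49 (SE 0.29) in sham and -1.73 (SE 0.28) in BDL pigs on SLE, and -1.67 (SE 0.29) and -1.84 (SE 0.32) on MLE. Without both matching libraries these were -2.57, -1.74, -1.75 and -1.84.

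FMO5, an unusual member of the family that works as a Baeyer-Villiger oxygenase on ketones, differed most between the diets among the members. It ran from 132 through 610 to 758 CPM in ENT-sham and from 56.3 through 172 to 514 CPM in ENT-BDL pigs. In SLE-sham the lowest, median and highest values were 19.2, 56.4 and 85.7 CPM, and in SLE-BDL 8.85, 26.8 and 41.2 CPM. In MLE-sham they were 63.1, 102 and 169 CPM, and in MLE-BDL 15.3, 19.7 and 69.3 CPM. The ENT-sham median was 10.8 times the SLE-sham median, and no SLE pig reached the lowest ENT pig with the same surgery. The only overlap of MLE-sham with ENT-sham came through the library labelled ENT-sham replicate 2 (132 CPM). Without it the lowest ENT-sham value was 342 CPM. MLE-BDL overlapped ENT-BDL through MLE-BDL replicate 2 alone, at 69.3 CPM. Against ENT the log2 difference of FMO5 was -3.33 (SE 0.33) in sham and -3.19 (SE 0.33) in BDL pigs on SLE, and -2.35 (SE 0.33) and -3.15 (SE 0.37) on MLE, or -3.43, -3.25, -2.46 and -3.20 without both matching libraries.

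AOX1 was likewise highest on ENT, at a lower level. It ran from 49.9 through 137 to 211 CPM in ENT-sham and from 29.6 through 80.7 to 159 CPM in ENT-BDL pigs. The SLE-sham values were 15.7, 21.0 and 50.3 CPM, and the SLE-BDL values 8.08, 13.2 and 31.7 CPM. In MLE-sham they were 30.1, 37.1 and 50.0 CPM, and in MLE-BDL 14.5, 16.3 and 47.6 CPM. Of the 10 SLE-sham pigs 9 lay below every ENT-sham pig, and of the 11 SLE-BDL pigs 10 lay below every ENT-BDL pig. The overlap with ENT-sham again rested on the library labelled ENT-sham replicate 2 (49.9 CPM), without which ENT-sham started at 81.5 CPM and lay above all 10 SLE-sham and all 9 MLE-sham pigs. The log2 difference of AOX1 from ENT was -2.39 (SE 0.25) in sham and -2.42 (SE 0.25) in BDL pigs on SLE, and -1.82 (SE 0.25) and -1.77 (SE 0.27) on MLE, or -2.48, -2.46, -1.90 and -1.80 without both matching libraries.

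FMO4, a family member of low level in these livers, stayed within a narrow range. Its group medians ran from 20.6 CPM in MLE-BDL to 32.0 CPM in ENT-sham, and its values over all pigs from 14.4 to 46.6 CPM. Neighbouring groups in that order overlapped throughout. Against ENT it differed by -0.22 (SE 0.13) in SLE-sham, -0.21 (SE 0.13) in MLE-sham, 0.16 (SE 0.13) in SLE-BDL and -0.33 (SE 0.14) in MLE-BDL pigs, in log2 units. The SLE-BDL value was 0.087 without SLE-BDL replicate 7, and the MLE-sham value -0.33 without MLE-sham replicate 4 and -0.13 without replicate 7.

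FMO2, best known from the lung, was close to the limit of detection, with 0 to 59 counts per library. Its medians in sham and BDL pigs were 0.338 and 0.354 CPM on ENT, 0.690 and 1.13 CPM on SLE, and 1.20 and 1.11 CPM on MLE. The PN medians were higher than the ENT medians, in contrast to FMO1, FMO5 and AOX1, but every pair of neighbouring groups overlapped. Against ENT the log2 differences were 0.87 (SE 0.52) in SLE-sham, 1.30 (SE 0.52) in MLE-sham, 1.30 (SE 0.56) in SLE-BDL and 1.62 (SE 0.59) in MLE-BDL pigs. The SLE-sham value was 0.50 without SLE-sham replicate 3. FMO2 also differed between identifier numbers, from 0 to 0.289 CPM in the 4 pigs with one number, all on ENT, and from 0.878 to 3.09 CPM in the 7 pigs with another, all on PN. The part of the identifier number in the diet difference was not tested.

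**Figure D1:**
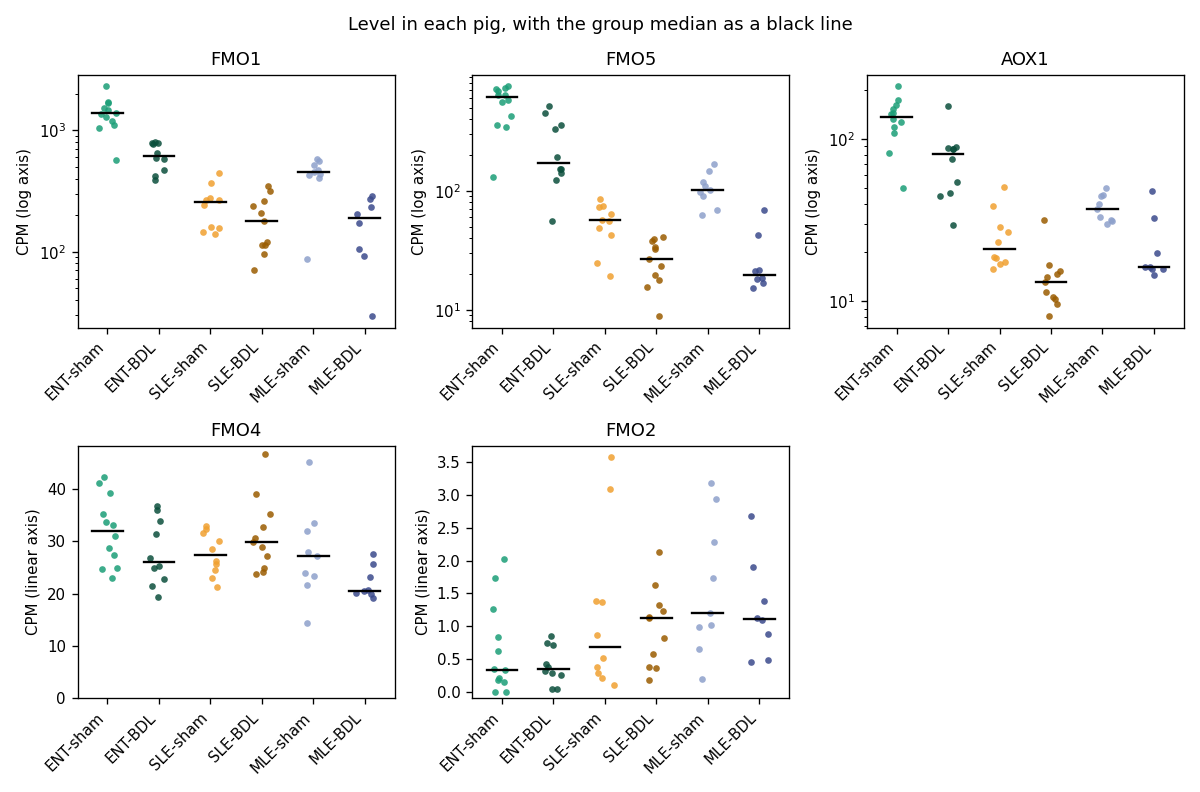
Level of the 5 members in each of the 60 pigs, in CPM, by diet and surgery group (FMO1, FMO5 and AOX1 on a log axis, FMO4 and FMO2 on a linear one, black line at the group median). The medians of FMO1, FMO5 and AOX1 are lower on both PN diets than on ENT and lower in BDL than in sham pigs, although FMO1 after BDL on SLE did not pass the test, the lowest ENT-sham point in the panels of these 3 genes is the library labelled ENT-sham replicate 2, and FMO4 overlaps between all groups.

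In each of the 4 PN against ENT comparisons the same 3 of 5 members, FMO1, FMO5 and AOX1, had a fitted level more than 2-fold lower. Of all genes tested, 2.79% were called lower (adjusted p under 0.05 and a fold above 2) in SLE-sham, 2.12% in MLE-sham, 1.76% in SLE-BDL and 2% in MLE-BDL pigs. The members were counted by fold alone, so these shares follow a stricter rule. These 4 comparisons share their ENT pigs in pairs, and they are the ones that chose the members.

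BDL against sham was not part of that choice and asks how the members respond to a blocked bile duct within a diet. FMO5 was lower after BDL on every diet. Its fitted log2 fold change was -1.15 (SE 0.30, edgeR quasi-likelihood test, Benjamini-Hochberg adjusted p = 0.00491) on ENT, -1.02 (SE 0.31, adjusted p = 0.0423) on SLE and -1.95 (SE 0.35, adjusted p = 8.63e-05) on MLE. On MLE 7 of 8 BDL pigs lay below every sham pig, on SLE 3 of 11, and on ENT 2 of 10, or 6 of 9 without both matching libraries.

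FMO1 fell after BDL on ENT (log2 fold change -1.15, SE 0.28, adjusted p = 0.00216) and on MLE (-1.33, SE 0.32, adjusted p = 0.00218). On SLE the estimate was -0.39, with a 95% interval from -0.95 to 0.16 and an adjusted p of 0.48, and was -0.26 without SLE-sham replicate 2. All 10 ENT-BDL pigs and all 8 MLE-BDL pigs lay below the median of their sham group, as did 8 of 11 SLE-BDL pigs.

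AOX1 fell by less than 2-fold on each diet. The log2 fold change was -0.82 (SE 0.23, adjusted p = 0.0104) on ENT, -0.85 (SE 0.24, adjusted p = 0.0322) on SLE and -0.77 (SE 0.27, adjusted p = 0.0446) on MLE. On SLE 9 of 11 BDL pigs lay below every sham pig, on MLE 6 of 8, and on ENT 3 of 10, or 4 of 9 without both matching libraries.

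FMO4 and FMO2 did not pass the test on any diet. FMO4 differed by -0.20 (95% interval -0.46 to 0.06) on ENT, 0.18 (-0.09 to 0.44) on SLE and -0.32 (-0.62 to -0.03, adjusted p = 0.134) on MLE. FMO2 differed by -0.66 (-1.78 to 0.46) on ENT, -0.24 (-1.27 to 0.80) on SLE and -0.34 (-1.46 to 0.79) on MLE. The FMO2 intervals are wide enough to hold a 2-fold difference on each diet. Single pigs moved these estimates: FMO4 was 0.10 on SLE without SLE-BDL replicate 7 and -0.20 on MLE without MLE-sham replicate 4, and FMO2 was -0.32 on ENT without ENT-sham replicate 11, 0.14 on SLE without SLE-sham replicate 3 and -0.40 without SLE-BDL replicate 11, and -0.14 on MLE without MLE-sham replicate 6 and -0.57 without MLE-BDL replicate 7.

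Counted together, 3 of 5 members passed the test on ENT, 2 on SLE and 3 on MLE, all of them lower in BDL. Over all genes, 8.66% passed in that direction on ENT, 1.68% on SLE and 7.2% on MLE. With a fold above 2 also required, the members called were FMO1 and FMO5 on ENT, FMO5 on SLE and FMO1 and FMO5 on MLE, against 1.22%, 0.296% and 1.28% of all genes called lower. Averaged over the 3 diets FMO5 fell by 1.37 (SE 0.19, adjusted p = 5.27e-08), FMO1 by 0.96 (SE 0.17, adjusted p = 8.49e-06) and AOX1 by 0.81 (SE 0.14, adjusted p = 1.25e-05) on the log2 scale. In that average 3 of 5 members were past the test and lower, as were 15.7% of all genes, and FMO5 alone was past the 2-fold limit (0.728% of all genes). The median of the 5 members was -0.82 on ENT, -0.39 on SLE and -0.77 on MLE, beside medians over all tested genes of 0.00, 0.00 and -0.01.

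The results of FMO5 and AOX1 on SLE and of AOX1 on MLE were close to the threshold of the test. FMO5 on SLE no longer passed in 12 of 60 fits that left out 1 pig, namely SLE-sham replicates 2, 3, 7, 8, 9 and 10 and SLE-BDL replicates 2, 4, 5, 6, 8 and 9 (log2 fold change -1.01 to -0.92, adjusted p 0.0527 to 0.0892). The 2 SLE-sham libraries that share an animal identifier are among them. AOX1 on SLE, which passed the test at less than 2-fold, no longer passed without SLE-sham replicate 2, 6 or 7 or SLE-BDL replicate 4, 5 or 6 (-0.83 to -0.68, adjusted p 0.0514 to 0.0941), nor with the identifier number as a block (-0.84, adjusted p = 0.0529). AOX1 on MLE no longer passed in 23 fits (-0.79 to -0.69, adjusted p 0.0501 to 0.0977), those without MLE-sham replicate 1, 2, 3, 4, 5, 6 or 9, MLE-BDL replicate 1, 3, 4, 5, 7 or 8, ENT-sham replicate 3, 8 or 10, ENT-BDL replicate 6 or 8, SLE-sham replicate 1 or 10, or SLE-BDL replicate 2, 5 or 11. With no filter on low counts none of these 3 results passed (adjusted p 0.0524 to 0.0708), and AOX1 on SLE did not pass in a fit of the compared groups alone (adjusted p = 0.0572). FMO1, FMO5 and AOX1 on ENT and FMO1 and FMO5 on MLE passed the test in all 60 such fits. Without both matching libraries the ENT estimates were -1.22 for FMO1, -1.19 for FMO5 and -0.86 for AOX1.

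**Figure D2:**
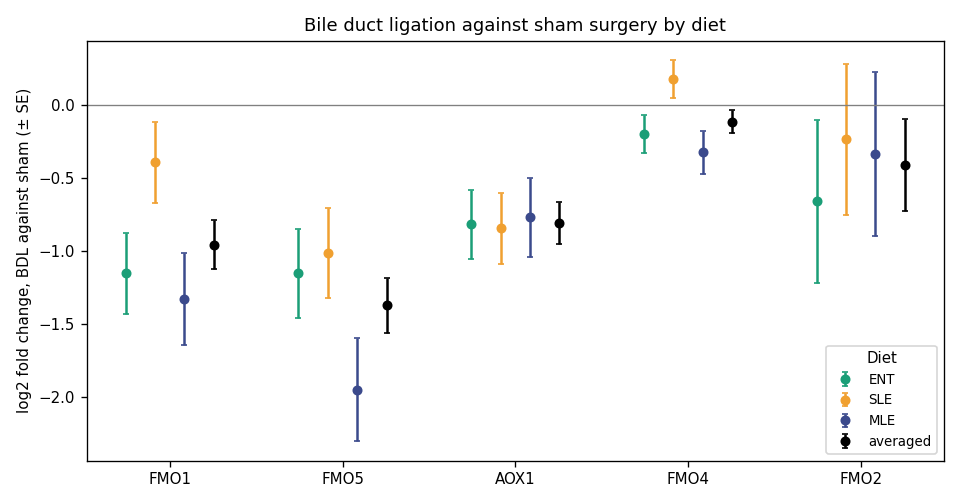
Fitted log2 fold change of each member, BDL against sham, on ENT, SLE and MLE and averaged over the diets, with bars of 1 SE (n = 12 and 10, 10 and 11, and 9 and 8 pigs). FMO1, FMO5 and AOX1 lie below 0 on each diet, with the FMO1 bar on SLE closest to 0 among them, and the points of FMO4 and FMO2 lie between -0.66 and 0.18.

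Markers of several cell types also differed between BDL and sham pigs. Summed CPM of 9 hepatocyte markers had a range of 50571 to 124497 with a median of 110939 in ENT-sham and 50381 to 96075 with a median of 64754 in ENT-BDL. On SLE the sham range was 70274 to 100562 (median 82206) and the BDL range 48939 to 106395 (median 76162). On MLE the sham range was 73632 to 124515 (median 91276) and the BDL range 47933 to 63413 (median 57231). Of the 9 markers 5 passed the test as lower after BDL on ENT and 7 on MLE, while on SLE the median change over the 9 was -0.07. On SLE, where 0 of the 9 passed, FMO5 and AOX1 passed the test and FMO1 did not. Of 7 cholangiocyte markers 5 were higher on ENT, 1 on SLE and 6 on MLE. In the average over the diets 6 of 8 stellate cell and myofibroblast markers passed the test as higher and 1 as lower, and of 8 macrophage markers 1 passed as higher and 4 as lower. Of 9 markers of hepatocytes around the central vein 4 were lower after BDL on ENT and 2 on MLE, and of 7 endothelial markers 2 on ENT and 1 on MLE. Of 8 markers of hepatocytes around the portal vein 2 were higher and 1 lower on ENT, 1 was higher on SLE and 3 were lower on MLE. No marker of these 7 lists was at the detection floor in all pigs of a group. The part of these cell types in the falls of the members was not tested.

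Markers of hepatocytes around the central vein also differed between the diets. On ENT their summed level had a median of 1840 CPM in sham (436 to 2493) and 807 CPM in BDL pigs (337.9 to 1002). On SLE the medians were 434 CPM in sham (334.6 to 1091) and 364 CPM in BDL pigs (238 to 516), and on MLE 485 CPM (271 to 638) and 267 CPM (187 to 453). Of these 9 markers 6 passed the test as lower than ENT in SLE-sham, 6 in MLE-sham, 3 in SLE-BDL and 4 in MLE-BDL pigs. The median log2 differences of the list were -0.59, -0.96, -0.38 and -0.66. The list includes CYP2E1 and CYP1A2, which are also among the P450 genes read below. The medians of FMO1, FMO5 and AOX1 were likewise highest in ENT-sham and next highest in ENT-BDL, but the members were chosen on PN against ENT. Other lists also moved against ENT. Of the 9 general hepatocyte markers 4 passed as lower in SLE-sham, 2 in MLE-sham, 1 in SLE-BDL (with 1 higher) and 1 in MLE-BDL pigs, and of the 7 cholangiocyte markers 3, 2, 1 and 2 passed as higher. Of 8 markers of hepatocytes around the portal vein 1 passed as higher and 2 as lower in SLE-sham, 1 and 1 in MLE-sham, 2 and 0 in SLE-BDL, and 1 and 1 in MLE-BDL pigs. Of 6 erythroid markers 1 was lower in SLE-sham, 1 in MLE-sham, 0 in SLE-BDL and 4 in MLE-BDL pigs (list median -2.29). Of 7 endothelial markers 2 were lower in SLE-sham and 1 in MLE-BDL pigs. Of 8 macrophage markers 2 passed as higher and 1 as lower in SLE-sham, and 1 as lower in MLE-sham pigs. Of 8 stellate cell and myofibroblast markers 1 was lower in SLE-sham and 1 in SLE-BDL pigs, and of 5 tested lymphocyte markers 1 was lower in SLE-BDL pigs. The part of these cell types in the levels of the members was not tested.

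The lipid emulsions were compared directly in pigs with the same surgery. None of the 5 members passed the edgeR test in sham or in BDL pigs, although 3 had an unadjusted p under 0.05 in sham pigs and 2 in BDL pigs. DESeq2 passed 0 members in sham and 1 in BDL pigs. Over all genes, 0.944% passed the edgeR test after adjustment in sham and 0.95% in BDL pigs in either direction. These shares are no background for the unadjusted or the DESeq2 counts, for which no share of all genes was counted. In sham pigs the MLE level was higher than the SLE level by 0.98 (95% interval 0.33 to 1.62, adjusted p = 0.137) for FMO5, 0.83 (0.24 to 1.41, adjusted p = 0.179) for FMO1 and 0.58 (0.07 to 1.08, adjusted p = 0.345) for AOX1 on the log2 scale. For FMO5 7 of 9 MLE-sham pigs lay above every SLE-sham pig, and for FMO1 5 of 9 did. In BDL pigs FMO5 differed by 0.05 (-0.61 to 0.70) and FMO1 by -0.11 (-0.70 to 0.48). AOX1 was 0.65 higher (0.14 to 1.17, adjusted p = 0.227, but 0.41 without MLE-BDL replicate 2) and FMO4 0.50 lower (-0.78 to -0.21, adjusted p = 0.0702) in MLE-BDL. The FMO4 difference is the member that DESeq2 passed (adjusted p = 0.0382), and edgeR passed it without SLE-BDL replicate 6 (adjusted p = 0.0456). Of the 8 MLE-BDL pigs 6 had less FMO4 than any SLE-BDL pig.

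Differences between diets in the BDL response were tested as interactions, and no member passed the edgeR test in any of them, nor did any with DESeq2. For MLE against SLE the BDL response differed by -0.50 for FMO4 (95% interval -0.90 to -0.10, adjusted p = 0.366) and by -0.93 for both FMO1 (-1.77 to -0.10, adjusted p = 0.44) and FMO5 (-1.85 to -0.01, adjusted p = 0.505). In that interaction 3 of 5 members had an unadjusted p under 0.05, against 1 for SLE against ENT and 0 for MLE against ENT. Over all genes 0.278%, 2.28% and 0.0802% passed these 3 interactions after adjustment. The share of all genes at unadjusted p under 0.05 was not counted, so the unadjusted counts of members have no background here. The BDL response on SLE differed from that on ENT by 0.38 for FMO4 (95% interval 0.0075 to 0.75, adjusted p = 0.324) and by 0.76 for FMO1 (-0.02 to 1.54, adjusted p = 0.359).

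The members were also set against each other per kilobase of exon, since CPM favors long transcripts. FMO1 had mean levels of 585 ± 179 CPM per kb (SD, n = 12) in sham and 264 ± 67.5 (n = 10) in BDL pigs on ENT, 104 ± 43.1 (n = 10) and 79.2 ± 39.7 (n = 11) on SLE, and 185 ± 61.1 (n = 9) and 73.6 ± 38.8 (n = 8) on MLE. FMO5 had 116 ± 41.1 and 52.2 ± 32.6 CPM per kb on ENT, 11.5 ± 4.53 and 5.71 ± 2.30 on SLE, and 22.7 ± 7.22 and 5.89 ± 3.98 on MLE. AOX1 had 33.3 ± 10.5 and 18.9 ± 9.07 CPM per kb on ENT, 6.34 ± 2.80 and 3.52 ± 1.59 on SLE, and 9.46 ± 1.80 and 5.56 ± 2.93 on MLE. FMO1 was thus the most abundant of the 5 transcripts in the mean of every group. FMO4, with means from 5.09 to 7.38 CPM per kb, was below FMO5 and AOX1 in the ENT groups, level with AOX1 in SLE-sham pigs (6.35 and 6.34), above it in SLE-BDL pigs (7.18 and 3.52), and below it in MLE-sham (6.37 and 9.46) and MLE-BDL pigs (5.09 and 5.56). FMO2 had means from 0.068 to 0.262 CPM per kb.

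The PN against ENT difference was uneven along the cluster on chromosome 9. FMO4, at its end, differed from ENT by -0.22 (SE 0.13) in SLE-sham and -0.21 (SE 0.13) in MLE-sham pigs, while FMO1 beside it differed by -2.49 (SE 0.29) and -1.67 (SE 0.29) in log2 units. The start of FMO4 lies 13759 bases beyond the end of FMO1. On chromosome 4, CHD1L, whose span holds FMO5, differed from ENT by -0.46 (SE 0.08) in SLE-sham pigs against -3.33 for FMO5. On chromosome 15, SGO2, which ends 7024 bases before AOX1, differed by -0.24 (SE 0.17) and AOX2, the only other AOX gene tested, by 0.47 (SE 0.30, adjusted p = 0.255) against -2.39 for AOX1.

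**Figure D3:**
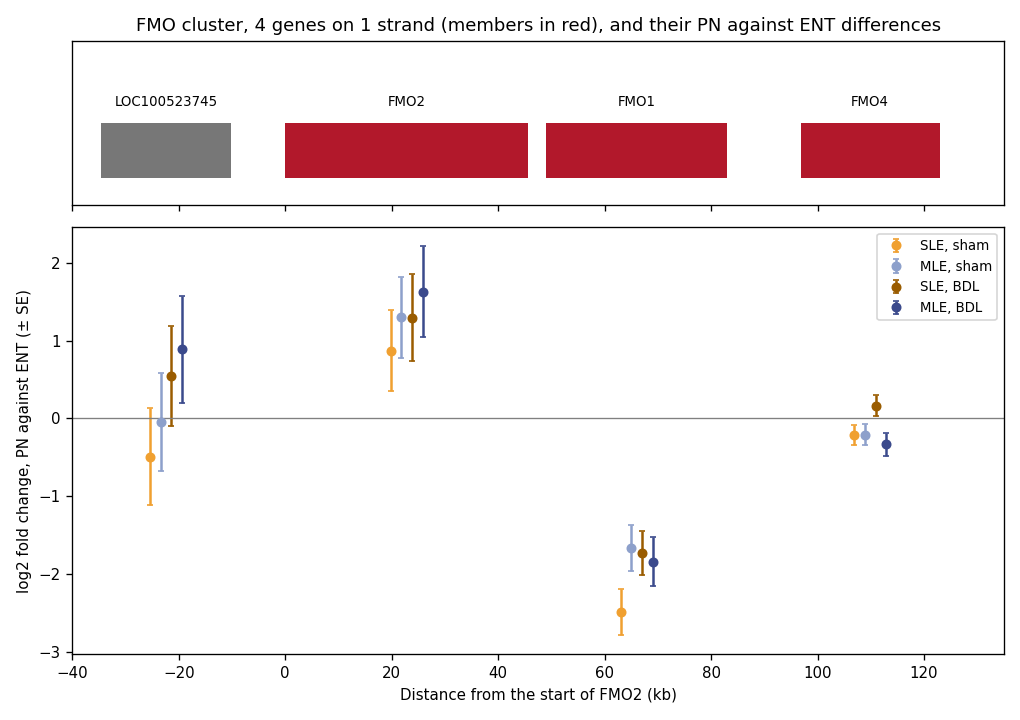
Map of 4 tested genes of the FMO cluster as distance from the start of FMO2 in kb (upper panel, members in red) and the log2 fold change of each gene on PN against ENT with bars of 1 SE (lower panel, 4 comparisons). FMO1 lies between -2.49 and -1.67 while FMO4 beside it lies between -0.33 and 0.16.

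FMO5 and AOX1 lie on different chromosomes, and the question was whether they also vary together between pigs of the same group, which the choice of members did not use. After the group mean was subtracted from log2 CPM, FMO5 and AOX1 correlated over the 60 pigs with Pearson's r = 0.71 and Spearman's rho = 0.64 (permutation within groups, p = 1e-05 for each, the smallest that 100000 permutations can give, 0.0001 after adjustment over 10 pairs). Pearson's r was positive in 6 of 6 groups, from 0.40 to 0.99 (n = 8 to 12), was 0.62 without the 2 pigs farthest from the median of FMO5, and was 0.66 without both matching libraries (adjusted p = 0.0001). By group, Spearman's rho ran from 0.21 in SLE-BDL to 0.90 in MLE-BDL pigs. In ENT-sham pigs it was 0.50, where r was 0.83. For AOX1 none of the 16209 other genes had a higher residual correlation than FMO5, and 13 genes had a residual correlation with FMO5 at or above that of AOX1.

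Correlations of FMO1 with the other members were weaker. FMO1 correlated with FMO5 at r = 0.34 (rho = 0.29, permutation p = 0.00672, adjusted 0.029 for r and 0.0811 for rho), with AOX1 at r = 0.34 (rho = 0.30, p = 0.00887, adjusted 0.029 and 0.0811) and with FMO2 at r = -0.31 (rho = -0.31, p = 0.0116, adjusted 0.029 and 0.0741). Without both matching libraries the correlations of FMO1 with FMO5 and with AOX1 were both 0.28, each with an adjusted p of 0.112. The correlation of FMO1 with FMO5 no longer passed without ENT-sham replicate 2 (0.28) or MLE-sham replicate 6 (0.33), that for FMO1 with AOX1 without ENT-sham replicate 2 (0.28), and that for FMO1 with FMO2 without MLE-sham replicate 6, MLE-BDL replicate 7 or SLE-BDL replicate 10 (-0.28 to -0.27). The 6 remaining pairs had r between -0.06 and 0.16 and adjusted p values of 0.456 or more.

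**Figure D4:**
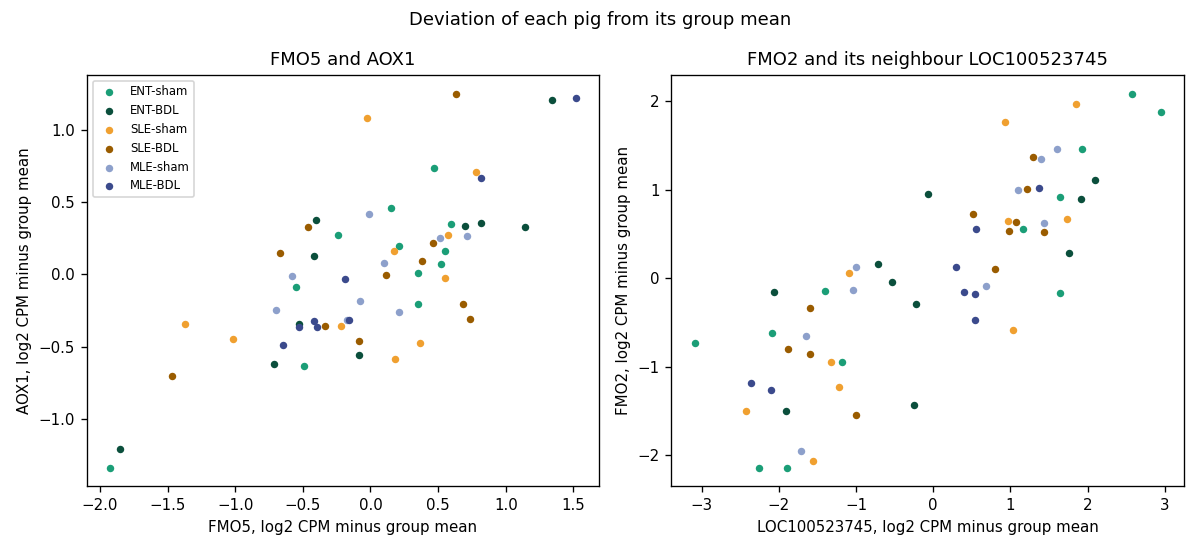
Deviation of each of the 60 pigs from its group mean in log2 CPM, for FMO5 against AOX1 (left) and for LOC100523745 against FMO2 (right), colored by group. FMO5 and AOX1 rise together (r = 0.71), as do FMO2 and its neighbour LOC100523745 (r = 0.82).

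FMO2 varied together with another gene of its cluster, a relation chosen after the values were seen and given as a description with no test. Its residual correlation with LOC100523745 was 0.82 (rho = 0.83, n = 60, 0.82 without the 2 pigs farthest from the median), from 0.65 to 0.88 in 6 of 6 groups, and none of 16209 other genes correlated with FMO2 more strongly. With LOC100523745, FMO1 had r = -0.15, FMO4 0.08, FMO5 0.10 and AOX1 0.02. The 2 genes share a cluster and related sequence, and both are of low level.

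Over all 60 pigs, with group differences left in, FMO5 and AOX1 were each the gene most like the other among 10812 ranked genes (r = 0.941, rho = 0.912), a description that includes the diet difference for which they were chosen. After AOX1, the genes most like FMO5 were UGP2, which makes UDP-glucose (r = 0.913), CHPT1, a phosphatidylcholine synthesis enzyme (0.905), GYS2, the liver glycogen synthase (0.905), and ANG, a secreted ribonuclease (0.904). After FMO5, those most like AOX1 were UGP2 (0.877), SLCO1A2, an organic anion uptake transporter (0.870), GYS2 (0.869) and FDX1, a mitochondrial electron carrier (0.861). FMO1 ranked 37 for FMO5 (0.859) and 17 for AOX1 (0.839), and FMO4 ranked 2771 and 3429. The median level of UGP2 was 374 CPM in ENT-sham and 116 in SLE-sham, and that of GYS2 299 and 63.8 CPM.

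Genes that supply the cofactors of these enzymes were read beside them. Of the 6 tested genes that make or mature the molybdenum cofactor, 3 were lower after BDL on ENT, 1 on SLE and 3 on MLE, with list medians of -0.21, -0.08 and -0.27. MOCS2, a subunit of molybdopterin synthase, was lower on all diets (-0.39, SE 0.09, adjusted p = 0.000781 on ENT, -0.40, SE 0.09, adjusted p = 0.00469 on SLE, and -0.34, SE 0.10, adjusted p = 0.0123 on MLE). GPHN, which inserts molybdenum, and NFS1, a cysteine desulfurase, were lower on ENT (-0.25 and -0.22) and MLE (-0.40 and -0.35). MOCOS, the sulfurase that activates AOX1 and XDH, stood apart on PN, where it was lower than in ENT by 0.75 (SE 0.26, adjusted p = 0.0222) in SLE-sham, 1.36 (SE 0.27, adjusted p = 0.000152) in MLE-sham, 0.86 (SE 0.26, adjusted p = 0.0122) in SLE-BDL and 1.51 (SE 0.29, adjusted p = 0.000125) in MLE-BDL pigs. It was the only gene of the 6 more than 2-fold lower in any PN comparison. MOCS3 and MOCS1, earlier in the same pathway, were higher on PN where they passed the test (0.24 to 0.42).

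Other molybdenum enzymes were lower in some of the same comparisons. XDH, which makes uric acid, was lower after BDL on ENT (-0.80, SE 0.25, adjusted p = 0.0178) and on MLE (-0.87, SE 0.28, adjusted p = 0.028), and SUOX, the sulfite oxidase, likewise (-0.49, SE 0.13, adjusted p = 0.00577, and -0.58, SE 0.15, adjusted p = 0.00506). On SLE, where AOX1 fell, XDH differed by 0.09 (SE 0.25, adjusted p = 0.896) and SUOX by 0.04 (SE 0.13, adjusted p = 0.921) after BDL. Against ENT, XDH was lower in SLE-sham (-0.87), MLE-sham (-0.83) and MLE-BDL (-0.90) pigs and SUOX in SLE-sham pigs (-0.80). The 3 tested genes of this list had medians of -0.80, -0.24, 0.02 and -0.32 in SLE-sham, MLE-sham, SLE-BDL and MLE-BDL.

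For the FAD of the FMO enzymes and AOX1, 4 genes of riboflavin uptake and FAD synthesis were tested. Those that passed on PN were higher than in ENT: 2 in SLE-sham, 2 in MLE-sham, 3 in SLE-BDL and 1 in MLE-BDL pigs, with list medians of 0.28, 0.36, 0.31 and 0.26. RFK, the riboflavin kinase, was higher in SLE-sham (0.46, SE 0.10, adjusted p = 0.000235), MLE-sham (0.37) and SLE-BDL pigs (0.30), SLC52A2, a riboflavin transporter, in all 4 (0.31 to 0.37), and FLAD1, the FAD synthase, in SLE-BDL pigs (0.33). After BDL only RFK on ENT passed (0.31, SE 0.10, adjusted p = 0.0223). FMO1, FMO5 and AOX1 were lower in each of these PN comparisons.

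Of 5 tested genes that supply NADPH, 1 passed as higher than ENT in each PN comparison. ME1, the malic enzyme, was higher after BDL on ENT (0.84, SE 0.18, adjusted p = 0.000416), SLE (0.74, SE 0.19, adjusted p = 0.0122) and MLE (0.79, SE 0.20, adjusted p = 0.00497). Other genes of that list went the other way: IDH1, the cytosolic isocitrate dehydrogenase, was lower after BDL on ENT (-0.27, SE 0.09, adjusted p = 0.0266) and MLE (-0.31, SE 0.10, adjusted p = 0.0258), and H6PD, an enzyme of the endoplasmic reticulum, on MLE (-0.46, SE 0.15, adjusted p = 0.034). POR, which feeds electrons to P450 enzymes but not to FMO enzymes, was lower after BDL on ENT (-0.64, SE 0.13, adjusted p = 0.000405) and lower on PN in sham pigs (-0.56 and -0.54). CYB5B, a cytochrome b5, was higher after BDL on ENT (0.34, SE 0.09, adjusted p = 0.00426) and higher than in ENT in SLE-sham (0.39), MLE-sham (0.49) and MLE-BDL (0.28) pigs.

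The same comparisons were read in other enzymes of drug and aldehyde metabolism. Of 14 tested enzymes outside P450, epoxide hydrolases included, 2 passed as higher and 2 as lower than ENT in SLE-sham, 1 and 2 in MLE-sham, 0 and 6 in SLE-BDL, and 0 and 7 in MLE-BDL pigs. The largest PN against ENT change was that of EPHX2, soluble epoxide hydrolase, in SLE-sham pigs (-1.08, SE 0.16, adjusted p = 2.83e-07), the only one of the list past 2-fold. After BDL no gene of that list changed more than 2-fold on any diet, and 2 passed the edgeR test higher and 2 lower on ENT, 1 lower on SLE, and 1 higher and 4 lower on MLE. Among 15 tested P450 genes 7 were called lower in SLE-sham, 6 in MLE-sham, 3 in SLE-BDL and 7 in MLE-BDL pigs, while CYP2C42 was called higher in SLE-sham (1.20, SE 0.27) and MLE-BDL (1.45, SE 0.30) pigs. The largest falls were those of CYP2A19 in SLE-sham (-4.83, SE 0.70), MLE-sham (-3.17, SE 0.65) and SLE-BDL (-4.08, SE 0.75) and CYP2C32 in MLE-BDL (-4.48, SE 1.30). After BDL on ENT 3 P450 genes were called higher, led by CYP3A22 (1.95, SE 0.28, adjusted p = 9.9e-07), and 3 lower, led by CYP2A19 (-2.10, SE 0.58, adjusted p = 0.00792), whereas every member that passed after BDL was lower.

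Of 19 tested transcription factors of hepatocytes and drug sensing, NR1I3, the receptor CAR, was the only one called in PN against ENT comparisons: it was lower by 1.36 (SE 0.24) in SLE-sham, 1.41 (SE 0.25) in MLE-sham, 1.01 (SE 0.24) in SLE-BDL and 1.53 (SE 0.27) in MLE-BDL pigs. On PN 1 of the 19 passed as higher and 7 as lower in SLE-sham, 2 and 4 in MLE-sham, 4 and 4 in SLE-BDL, and 3 and 6 in MLE-BDL pigs. After BDL 11 passed the test as lower on ENT, 1 on SLE and 7 on MLE, with 1 of them past 2-fold on each diet. NR1I3 was among the others, at less than 2-fold on ENT (-0.68, SE 0.23, adjusted p = 0.0358) and on MLE (-0.81, SE 0.28, adjusted p = 0.0396).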

How the data were processed

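Liver mRNA of 60 pigs was sequenced from poly-T selected libraries made with a kit that does not mark strand. The authors deposited whole-number read counts per gene with gene coordinates; the submitters' processing notes name HISAT2 2.0.5, StringTie 1.3.3, featureCounts 1.5.0-p3 and build Sscrofa11.1, and the strand setting is not given in the sources used here. No normalization was applied to the deposited counts. Features without a name (24, at most 0.0407% of reads) were left out.

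Groups were taken from the sample labels. Counts were fitted with edgeR 4.0.16 in R 4.3.3 (TMM, filterByExpr, robust quasi-likelihood fit of 6 group means over all pigs), with Benjamini-Hochberg adjustment of p-values across 16210 genes. A gene passed the test at adjusted p under 0.05 and was called with a fold above 2 as well. SE is the log2 fold change divided by the root of F. P-values of the main fit rest on the spread between pigs, with each library taken as a separate pig and no block for identifier number. Residual correlations used log2 CPM (prior count 2) and 100000 two-sided permutations within groups (numpy 2.4.6, scipy 1.17.1). The edgeR test and the correlations were tested on simulated data.

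The members and gene lists were chosen with earlier results of these data known. Apart from some genes that are not reported here, those named were the members, genes of lists with up to 6 tested genes where they passed after BDL within a diet or on PN against ENT, of longer lists the called genes with the largest changes, and the 5 genes most like FMO5 and AOX1. DESeq2 1.42.0, other normalization and filters, blocks by replicate or identifier number, the compared groups alone, and leaving out each pig were the alternatives. Levels and overlaps without both matching libraries were added after seeing the data. Intervals are 95%. Sequences were not analysed here.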

Additional observations from a re-analysis of the deposited data

Results flagged for a closer look

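FMO1 in MLE-sham replicate 6 stood apart from its group: at 87.2 CPM it was the lowest of 9 pigs, and its gap to the next pig on the log2 scale was 0.809 of the range of the group, above Dixon's limit. It was the only one of 20 sets of a member and a group checked in this way, which leave out ENT-sham and SLE-BDL as groups of more than 10 pigs, and chance alone gives about 1 in 20. The same pig had the highest FMO2 of its group (3.18 CPM).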

How the results depend on the processing

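Of the members called after BDL on SLE (1), there were 0 with no filter on low counts, 0 with a replicate block and 2 at any fold change, and 3 at any fold change in the average over diets (1). Leaving out 1 pig gave 2 to 3 members called on ENT (3 without ENT-BDL replicate 10), 0 to 2 on SLE, 2 to 3 on MLE (3 without MLE-BDL replicate 2) and 1 to 2 in the average (2 without MLE-sham replicate 6). FMO5 on SLE was no longer past the threshold with no filter (-1.01, adjusted p = 0.0672), with the replicate block (-1.06, adjusted p = 0.0503) and in 12 fits without 1 pig (over all such fits -1.11 to -0.92). AOX1 on SLE no longer passed the test with no filter (-0.84), the identifier number as a block (-0.84) and the groups compared alone (-0.84), and ran from -1.04 to -0.68 without 1 pig. AOX1 on MLE no longer passed with no filter (-0.77) and ran from -1.01 to -0.69. FMO4, MLE against SLE in BDL pigs, passed with DESeq2 (-0.49) and ran from -0.54 to -0.42. The cause of these shifts was not tested.

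Signs turned only for estimates that never passed the test. With the replicate block FMO2 after BDL on ENT was 0.054, its SLE against ENT response -0.34 and its MLE against ENT response -0.63, and the AOX1 SLE against ENT response was 0.0089. With the identifier block FMO2 after BDL on SLE was 0.23, that AOX1 response 0.076, FMO4 for MLE against SLE in sham pigs -0.14, and in BDL pigs FMO1 was 0.096, FMO2 -0.12 and FMO5 -0.082. Without both matching libraries the AOX1 response was 0.016 and FMO4 in sham pigs -0.00134, and the residual correlations of FMO1 with FMO5 and AOX1 were both 0.28. With the identifier number subtracted, FMO1 with FMO4 was -0.012, FMO2 with AOX1 0.031 and FMO4 with AOX1 -0.038. Without 1 pig, FMO1 in BDL pigs (MLE against SLE) ran from -0.24 to 0.063, FMO5 from -0.29 to 0.14, FMO4 in sham pigs from -0.12 to 0.085, FMO2 after BDL on SLE from -0.40 to 0.14, AOX1 responses from -0.22 to 0.16 (SLE against ENT), -0.19 to 0.25 (MLE against ENT) and -0.17 to 0.27 (MLE against SLE), and FMO2 responses from -0.011 to 0.52 (MLE against ENT) and -0.47 to 0.099 (MLE against SLE). The residual correlations then ran from -0.34 to -0.27 (FMO1 with FMO2), 0.28 to 0.37 (FMO1 with FMO5, and FMO1 with AOX1), -0.018 to 0.088 (FMO2 with FMO4) and -0.13 to 0.015 (FMO2 with AOX1).

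Replicate numbers did not pair the pigs: over 137 pairs with the same number in different groups the median correlation of deviations was -0.02 (-0.23 to 0.38), and 25 exceeded 0.1. Pigs with the same identifier number in different groups had a mean correlation of 0.133 (177 pairs), against -0.018 for 1318 other pairs. FMO2, at 0 to 59 counts, is limited by depth and was not tested with at least 10 counts in every pig. The averaged comparison was not run on the compared groups alone.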

Other observations

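LOC100523745, the putative FMO6 next to FMO2, had no pig between 5.64 and 11.6 CPM: 28 of 60 pigs lay under this gap and 32 above it, over a range of 0.817 to 61.0 CPM. Of the 8 identifier numbers, 2 held only pigs under the gap (4 and 7 pigs), 2 held only pigs above it (7 and 7 pigs), and 4 held pigs on both sides, as did all 6 groups. One number with all 7 of its pigs under the gap and one with all 7 above it were each found in 5 groups, and FMO2 ran from 0.0516 to 1.20 CPM in the former and from 0.719 to 3.18 CPM in the latter. The division was seen in the values and was not tested. MLE pigs carry only 4 of the 8 numbers, so identifier number and diet cannot be fully told apart for FMO2 or for any other member.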
